A study of Mus musculus with 2 samples.

Results

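EP300 peaks that sat at the start of a protein-coding gene, on a promoter facing one direction and without a GATA site at the summit, numbered 2024 of 17043 optimal peaks on the autosomes and X (11.9%, 95% Wilson interval 11.4 to 12.4%). They are called one-direction promoter peaks here. A peak was a member when its summit lay within 1 kb of the transcription start site (TSS) of a protein-coding gene, when no A/T-GATA-A/G hexamer lay within 100 bp of the summit on either strand, and when all coding TSSs within 1 kb were on one strand. The peak signal took no part in the choice. The members made up 51.6% of the 3923 coding promoter peaks. The classes most like them were 397 divergent promoter peaks, which also lacked the hexamer but had coding TSSs on both strands, and 1502 GATA promoter peaks, which held the hexamer and of which 1400 faced one direction.

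The peaks came from 2 libraries of chromatin immunoprecipitation followed by sequencing (ChIP-seq) for EP300, prepared from B6NCrl mouse embryo liver at day 14.5, males and females mixed. The labels describe pulverized livers pooled over several dissections. The libraries, numbered replicates 1 and 2, formed 1 group with no other tissue, age or genotype, and both carried the same biosample label, so their spread may be technical. The authors' optimal list had already been filtered for reproducibility with the irreproducible discovery rate (IDR). No read totals are in the lists, so depth is unknown. The intervals below cover counting error over peaks or genes and not differences between animals. They treat peaks as independent, though 26.4% of members had another optimal summit within 500 bp, so they may be too narrow. An EP300 peak lay within 20 kb of a TSS of 10 of 10 erythroid markers (median strongest signal 243) and of 6 of 10 hepatocyte markers (median 21.6). Ttr, Serpina1a, Cebpa and Foxa2 had none. The share of all coding genes with any peak that near is not given here. A narrower measure, a peak with the hexamer over 1 kb from any coding TSS, was met within 20 kb by 25.2% of all coding genes.

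EP300 is a histone acetyltransferase that is brought to enhancers and promoters by transcription factors. GATA1 and related factors bind the GATA hexamer and direct red cell genes in the fetal liver, which at this age makes most of the embryo's blood. Promoters of genes used by nearly all cells are often rich in CpG and carry short sites for other factors: the GC box for the SP and KLF family, the CCAAT box for NF-Y, the ETS core for GABPA and its relatives, the cAMP response element (CRE) for CREB and ATF factors, and sites for NRF1, YY1 and ZNF143. The TATA box, bound by the TATA-binding protein, places the start of a smaller set of genes.

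The 6 sequences below show the promoter motifs in place: each is the strongest member with the motif named, and spans 201 bases centred on the summit, read 5′ to 3′ along the coding strand of the gene on GRCm38 (mm10). Capitals mark the motif and, in Ank1, Denr and Sde2, a GATA tetramer whose first flank is C or G, a form that the hexamer rule let through. They are not typical members: their signals ran from 73.1 to 356, against a median of 26.4 over all members, and 15.2% of members held that GATA form.
Ank1, chr8:23034977-23035177, plus strand: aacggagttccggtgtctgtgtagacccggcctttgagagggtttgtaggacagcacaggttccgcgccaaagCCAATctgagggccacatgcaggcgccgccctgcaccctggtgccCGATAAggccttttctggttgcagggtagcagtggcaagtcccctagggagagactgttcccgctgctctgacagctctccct
Denr, chr5:123907115-123907315, plus strand: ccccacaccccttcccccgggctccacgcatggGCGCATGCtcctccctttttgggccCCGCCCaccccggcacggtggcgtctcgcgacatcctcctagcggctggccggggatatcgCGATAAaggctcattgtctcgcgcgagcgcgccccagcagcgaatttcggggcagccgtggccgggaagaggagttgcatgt
Sde2, chr1:180850867-180851067, plus strand: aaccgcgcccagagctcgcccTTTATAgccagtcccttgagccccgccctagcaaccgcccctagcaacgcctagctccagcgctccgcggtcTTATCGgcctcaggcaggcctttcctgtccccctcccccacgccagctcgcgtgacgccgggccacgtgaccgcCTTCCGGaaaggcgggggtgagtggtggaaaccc
Hist1h4h, chr13:23530945-23531145, plus strand: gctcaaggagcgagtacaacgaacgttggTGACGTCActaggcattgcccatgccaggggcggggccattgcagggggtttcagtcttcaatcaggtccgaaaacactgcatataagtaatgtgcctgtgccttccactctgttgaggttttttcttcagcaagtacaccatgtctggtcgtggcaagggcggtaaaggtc
Qrich1, chr9:108516956-108517156, plus strand: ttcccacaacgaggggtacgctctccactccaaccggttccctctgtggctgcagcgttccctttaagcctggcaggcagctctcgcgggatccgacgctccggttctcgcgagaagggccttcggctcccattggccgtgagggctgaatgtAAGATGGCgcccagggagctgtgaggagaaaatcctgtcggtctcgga
Abi1, chr2:23040210-23040410, minus strand: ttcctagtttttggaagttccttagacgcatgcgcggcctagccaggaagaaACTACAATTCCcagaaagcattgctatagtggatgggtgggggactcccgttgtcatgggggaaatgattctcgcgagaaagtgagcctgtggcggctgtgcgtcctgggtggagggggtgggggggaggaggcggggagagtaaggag
In Ank1, which encodes the ankyrin of the red cell membrane, the CCAAT box began 49 bp upstream of the TSS. In Denr, which encodes a translation reinitiation factor, the capitals are an NRF1 core, a GC box on the opposite strand and CGATAA. In Sde2, which encodes a factor of the replication stress response, they are a TATA box, a GATA match and an ETS core, all 3 on the opposite strand. The TATA match lay 239 bp upstream of the TSS, outside the usual place of a TATA box, and the ETS core 93 bp upstream. The histone H4 gene Hist1h4h held a CRE 76 bp upstream of its TSS, Qrich1 a YY1 core that began 22 bp downstream, and Abi1, a regulator of actin assembly, a ZNF143 core that began 117 bp upstream.

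One-direction promoter peaks were weak peaks by the authors' deposited signal. Their median signal was 26.4 (quartiles 17.5 and 41.2, range 5.20 to 418), against 27.1 for divergent promoter peaks, 43.8 for GATA promoter peaks and 38.5 for all optimal peaks. The median member stood at percentile 32.2 of the list (95% order-statistic interval 30.5 to 33.7), and 71.8% of members lay below the median of the list. In the strongest decile of the list there were 32 members (1.58% of them), against 5 divergent peaks (1.26%) and 193 GATA promoter peaks (12.8%). In the weakest decile members were 398 of 1704 peaks, or 23.4%.

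**Figure D1:**
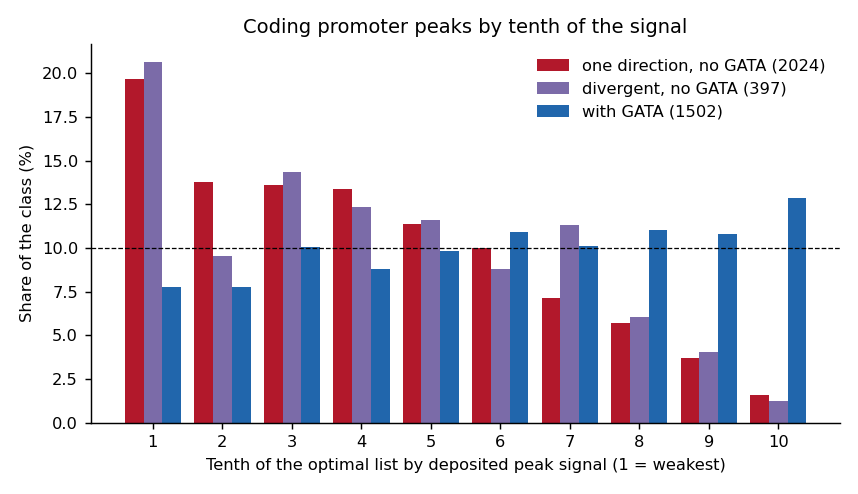
Share of each class of coding promoter peak (y axis, %) in each decile of the optimal list by deposited signal (x axis, weakest to strongest), for one-direction peaks without GATA (red), divergent peaks without GATA (purple) and peaks with GATA (blue). The dashed line is the 10% of an even spread; the red bars run from the highest share in the weakest decile to 1.58% in the strongest.

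The libraries gave nearly the same picture of the members when each was read alone. A summit of library 1 lay within 100 bp of 1605 members, with a median signal of 15.4 and a median rank of 10604. A summit of library 2 did so for 1602 members, with a median signal of 16.2 and a median rank of 10603.5. Both did for 1264 members (62.5%), library 1 alone for 341, library 2 alone for 338 and neither for 81. Among the 1264, the signals of the 2 libraries had a Spearman rho of 0.61, given as a description. The share matched in both libraries was 62.5% for divergent peaks (difference -0.018 points, 95% Newcombe interval -5.11 to 5.27) and 85.4% for GATA promoter peaks (difference -22.9 points, -25.6 to -20.1). It moved with signal within the members: 72 of 404 in the weakest quintile and 389 of 405 in the strongest quintile were matched in both. With only peaks above the median signal of the list, the difference from GATA promoter peaks was -5.00 points. Over all peaks it was -6.73 points (-8.50 to -4.94) when summits were matched within 250 bp.

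The strongest members were a mixed set of genes. Kctd3, a potassium channel tetramerisation domain gene, had the highest signal, 418 in the optimal list, with 201.3 in library 1 and 218 in library 2; its peak lay at chr1:188973203-188973525, with the summit 371 bp downstream of the TSS. Aqp9, a glycerol and water channel, had 403, with 198 in library 1 and 202 in library 2. Its summit lay 967 bp upstream, inside the 1 kb limit by a small margin. Both had high values in each library, and neither held any of the 7 promoter motifs from GC box to ZNF143 within 100 bp of the summit. Denr (356) and Sde2 (329) came next, then Cdk12, a kinase of RNA polymerase II (324), and Runx1t1, a transcriptional corepressor gene (303). Ank1 (265), Psmd5, a proteasome assembly factor (262), Slc44a3, a choline transporter-like gene (242), and Clcn3, a chloride and proton exchanger (242), completed the 10 strongest. In all 10 the summits of both libraries lay within 18 bp of the optimal summit.

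The limits of the rule passed through peaks of all strengths. At the 1 kb limit, Polr3e (998 bp, signal 24.8) and Stag1 (995 bp, 18.2) were just inside, and Cnbp (1007 bp, 16.8) and Pabpc1 (1017 bp, 15.4) just outside. At the GATA limit, Runx1t1 (303) and Hist1h4c (177) were members with the nearest hexamer reaching to 101 bp, while Ngrn (21.7) and Acsl3 (10.2), at 100 bp, were not. At the strand limit, Lrrc56 (17.3) and Sart3 (64.8) were members with a coding TSS on the other strand at 1006 and 1007 bp, and Sirt6 (64.999) and Lpxn (7.90), at 981 and 942 bp, counted as divergent. The nearest hexamer lay 151 to 200 bp from the summit in 143 members and 201 to 500 bp from it in 735, and in 263 (13.0%) none lay within 1 kb.

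Members were found right at the start of their genes. The median summit lay 46 bp upstream of the nearest coding TSS (quartiles 165 bp upstream and 23 bp downstream), and 976 members (48.2%) had it within 100 bp of the TSS, against 71.0% of divergent and 25.8% of GATA promoter peaks. The difference was -22.8 points from divergent peaks (-27.6 to -17.7) and 22.5 points from GATA promoter peaks (19.3 to 25.5). Divergent peaks have coding TSSs on both strands by rule, so a nearer TSS is in part built into that class. Summits lay upstream in 1348 members (66.6%), downstream in 658 (32.5%) and on the TSS base itself in 18. GATA promoter peaks were downstream in 41.4% (difference -8.90 points, -12.1 to -5.68), but with a promoter window of 500 bp this difference was -0.73 points and its interval held 0. Members close upstream were also the stronger ones: the median signal was 32.4 for the 618 with a summit 1 to 100 bp upstream, 25.8 for the 340 with one 1 to 100 bp downstream, and 18.7 for the 90 that lay over 500 bp downstream. By annotation, 913 summits (45.1%) fell outside coding genes, 539 (26.6%) in an untranslated exon, 413 (20.4%) in an intron, 84 in coding sequence and 75 in another exon.

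**Figure D2:**
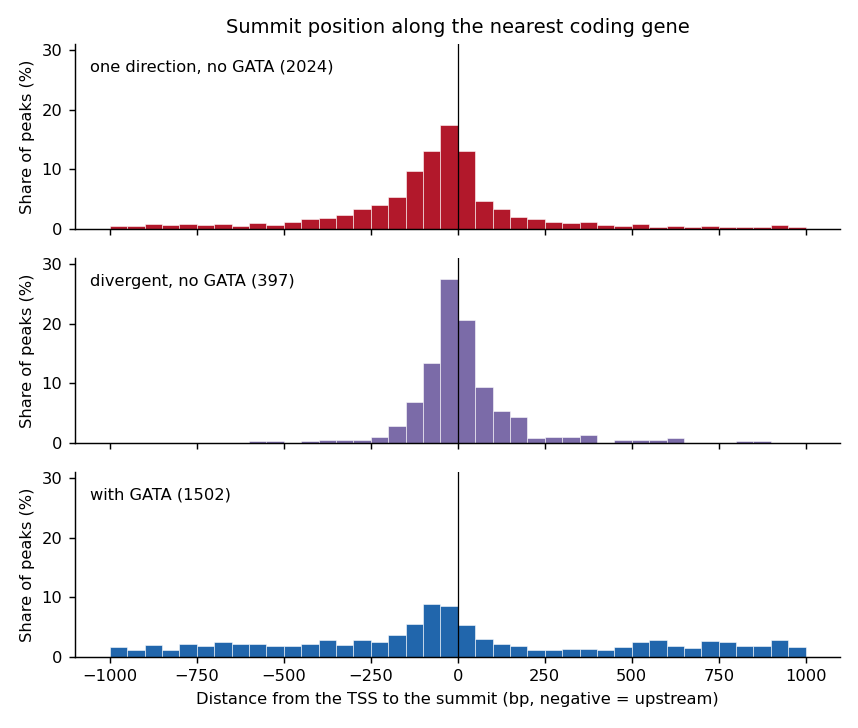
Share of summits (y axis, %) by distance from the nearest coding TSS in bins of 50 bp (x axis, negative is upstream), for the 2024 one-direction peaks without GATA (top), the 397 divergent peaks without GATA (middle) and the 1502 peaks with GATA (bottom). One-direction peaks gather just upstream of the TSS, divergent peaks more tightly around it, and peaks with GATA spread over the whole window. Divergent peaks have TSSs on both strands by rule, which favours a short distance to the nearest.

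CpG content set the members apart from GATA promoter peaks. A window of 250 bp on either side of the summit counted as CpG-rich when its G+C was at least 50% and its CpG observed over expected at least 0.6. By this measure 1505 members (74.4%) were CpG-rich, against 88.7% of divergent peaks (difference -14.3 points, -17.7 to -10.3) and 20.8% of GATA promoter peaks (difference 53.5 points, 50.6 to 56.2). At the 5′-most TSS of all coding genes the share was 47.9%. Median G+C was 59.9% in members, 61.5% in divergent peaks and 50.1% in GATA promoter peaks. The rule keeps a word rich in A and T out of the middle of this window, which favours a higher G+C in members. How much of the difference follows from the rule was not tested. Among peaks away from coding TSSs, median G+C was 47.3% without the hexamer and 45.5% with it. The 519 members that were not CpG-rich had a lower median signal (22.1, against 27.6 in the CpG-rich ones) and lay farther out, with 48.9% of summits over 300 bp from the TSS, against 12.1%. Kctd3, Aqp9, Ank1, Slc44a3 and Clcn3 of the 10 strongest were among them.

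The sequence at the summit held common promoter motifs. The search covered 100 bp on either side of the summit and both strands, for 19 motifs. GGGCGG stood for the GC box, CCAAT for the CCAAT box, CCACCC for the CACCC box, CCGGAAG for the ETS core, TGACGTCA for the CRE, TGACGCAA or TGACGTAA for its variants, GCGCATGC or GCATGCGC for NRF1, AAGATGGC or AANATGGCG for YY1, CACGTG for the E-box and TATAAA for the TATA box. TTTCCCGC, TTTGGCGC or TTCCCGCC stood for E2F, TGACTCA for AP-1 and NF-E2, TGTGGTT for RUNX, and TGTTTAC or TGTTTGC for FOXA. CAAAGTCCA, CAAAGTTCA or CAAGGTCCA stood for HNF4, and TTGCGCAA, TTGCACAA, TTGCATCA or TTGTGCAA for C/EBP, with longer words for ZNF143, HNF1 and CTCF. The last E2F word can share bases with a GC box, and the variants share the start of the CRE. A match is a description of the letters and not of a bound factor.

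The GC box was the most frequent, in 918 members (45.4%), against 44.3% of divergent peaks and 17.2% of GATA promoter peaks (difference 28.1 points, 25.2 to 30.95); 40.3% of all coding promoters held it within 100 bp of the TSS. The CCAAT box was in 548 members (27.1%), against 31.7% of divergent peaks, 23.0% of GATA promoter peaks (difference 4.11 points, 1.21 to 6.96) and 28.3% of all promoters. The interval of the CCAAT difference from GATA promoter peaks held 0 under 3 alternatives: with protein-coding transcripts only (2.84 points), with a GATA window of 250 bp (1.56) and with no GATA tetramer allowed (2.38). The ETS core was in 280 members (13.8%), against 17.1% of divergent peaks, 3.73% of GATA promoter peaks (difference 10.1 points, 8.31 to 11.9) and 9.67% of all promoters. E2F sites, which mark many cell cycle promoters, were in 132 members (6.52%), against 2.00% of GATA promoter peaks and 3.08% of all promoters. YY1 cores were in 113 members (5.58%), against 1.93% and 4.04%. NRF1 cores (48 members, 2.37%) and CREs (45 members, 2.22%) were rarer, against 0.33% and 0.60% of GATA promoter peaks and 2.72% and 2.03% of all promoters. TATA boxes were less frequent in members, 4.99%, than in GATA promoter peaks, 7.06% (difference -2.07 points, -3.72 to -0.49), and stood at 8.14% over all promoters; that difference changed sign among peaks above the median signal (1.82) and for motifs within 50 bp (0.73), and its interval also held 0 with library 2 alone, the top of the pooled list, a 500 bp window and no near-duplicate summits. RUNX sites, bound by the RUNX factors of blood cells, were in 2.92% of members, against 5.59% of GATA promoter peaks (difference -2.68 points, -4.11 to -1.34); among peaks above the median signal it was -2.15 points, with an interval that held 0.

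In all, 9 of the 19 motifs were in a larger share of members than of GATA promoter peaks and 4 in a smaller share, with intervals that left out 0. The larger-share count was 6 with protein-coding transcripts only and 7 with a GATA window of 250 bp. The shares were also compared within classes of CpG content. Among CpG-rich peaks alone, the GC box (54.7% of 1505 members and 46.6% of 313 GATA promoter peaks, difference 8.04 points, 1.957 to 14.04), the ETS core (17.3% and 11.5%, 5.77 points, 1.37 to 9.44) and the E2F site (7.91% and 4.47%, 3.43 points, 0.28 to 5.75) still differed. For CCAAT, CRE, NRF1 and YY1 the interval of the difference held 0 there; for CCAAT it ran from -6.60 to 4.29 points, and for NRF1 the difference was 1.65 points (-0.45 to 2.90). Among peaks that were not CpG-rich (519 members and 1189 GATA promoter peaks), the GC box differed by 8.80 points (5.22 to 12.7), the CCAAT box by 5.17 points (0.80 to 9.73), the ETS core by 2.17 points (0.55 to 4.28), the YY1 core by 1.44 points (0.08 to 3.28) and the NRF1 core by 0.69 points (0.07 to 1.88). The CACCC box (5.66 points, 1.27 to 10.2) and the CTCF core (1.25 points, 0.16 to 2.87) also differed there. The interval for the E2F site held 0 there (1.16 points, -0.17 to 2.97). For the 4 motifs in a smaller share of members, TATA, RUNX, AP-1 and FOXA, the interval held 0 in both CpG classes. It also held 0 in both classes for the CRE, its variants and the ZNF143 core, which were in a larger share of members over all peaks. RUNX sites were in 1.79% of members and 1.92% of GATA promoter peaks among CpG-rich peaks, and in 6.17% and 6.56% among the rest. TATA boxes were at 4.39% and 5.43%, and at 6.74% and 7.49%. Against divergent peaks 2 motifs differed: the CACCC box was more frequent in members (24.95% and 19.4%, difference 5.56 points, 0.99 to 9.63) and the YY1 core less frequent (5.58% and 8.56%, difference -2.98 points, -6.28 to -0.37). Each of these last differences had an interval that held 0 under 8 of the alternatives tried.

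**Figure D3:**
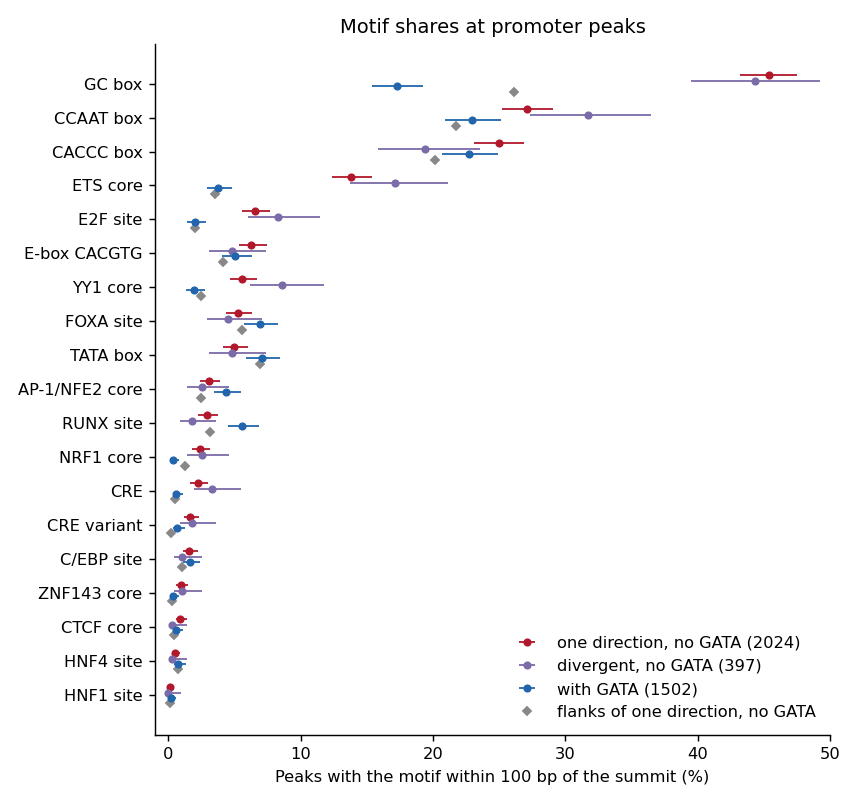
Share of peaks (x axis, %) with each of 19 motifs (y axis) within 100 bp of the summit, for one-direction peaks without GATA (red), divergent peaks (purple) and peaks with GATA (blue), with 95% Wilson intervals; grey diamonds are the flanks of the one-direction peaks. The red and purple points lie close together for most motifs, and the blue point lies far below them for the GC box and the ETS core.

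The motifs were more frequent at the summit than beside it. Against the members' own flanks at 400 to 500 bp on either side, 11 of 19 motifs were in a larger share at the summit and 1, the TATA box, in a smaller one. The rule kept the GATA hexamer out of the summit windows but not out of the flanks. How far this tilts the summit windows towards words rich in G and C was not tested. The ETS core showed the largest ratio among the motifs in over 100 members, 13.8% at the summit and 3.56% in the flanks (paired difference 10.3 points, 8.54 to 11.99). The GC box was at 45.4% and 26.1% (19.2 points, 16.5 to 22.0), the CCAAT box at 27.1% and 21.7% (5.33 points, 2.71 to 7.95), and the YY1 core at 5.58% and 2.47% (3.11 points, 1.90 to 4.32). HNF4, HNF1, FOXA and C/EBP sites, bound by factors of the hepatocyte, were in 10, 3, 106 and 32 members, and their intervals against the flanks held 0. At least 1 of 7 kinds of motif, from GC box, CCAAT box, ETS core, CRE and NRF1 to YY1 and ZNF143, was in all but 630 members (31.1%); among GATA promoter peaks 60.9% had none.

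Most motifs lay upstream of the TSS at similar distances, with medians of -52 bp for the GC box, -54.5 bp for the CACCC box, -59.5 bp for the NRF1 core and -67.5 bp for the E2F site and with overlapping quartiles. Matches of the CCAAT box had a median position of -75.5 bp from the TSS and 82.6% were upstream. CREs lay at a median of -60.5 bp, and 42 of 45 were upstream. ETS cores sat closer in, at a median of -19.5 bp (quartiles -77.2 and 19). YY1 cores were mostly inside the gene, with a median 14 bp downstream, and 83 read along the coding strand against 34 on the other strand. ZNF143 cores were also uneven, 15 along the coding strand and 4 on the other. Among the 976 members with a summit within 100 bp of the TSS, 21 TATA matches fell between 40 and 20 bp upstream, the usual place of a TATA box, and no other bin of 20 bp held more than 8. These positions follow in part from where the summits lie, since the search for the medians was centred on them.

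**Figure D4:**
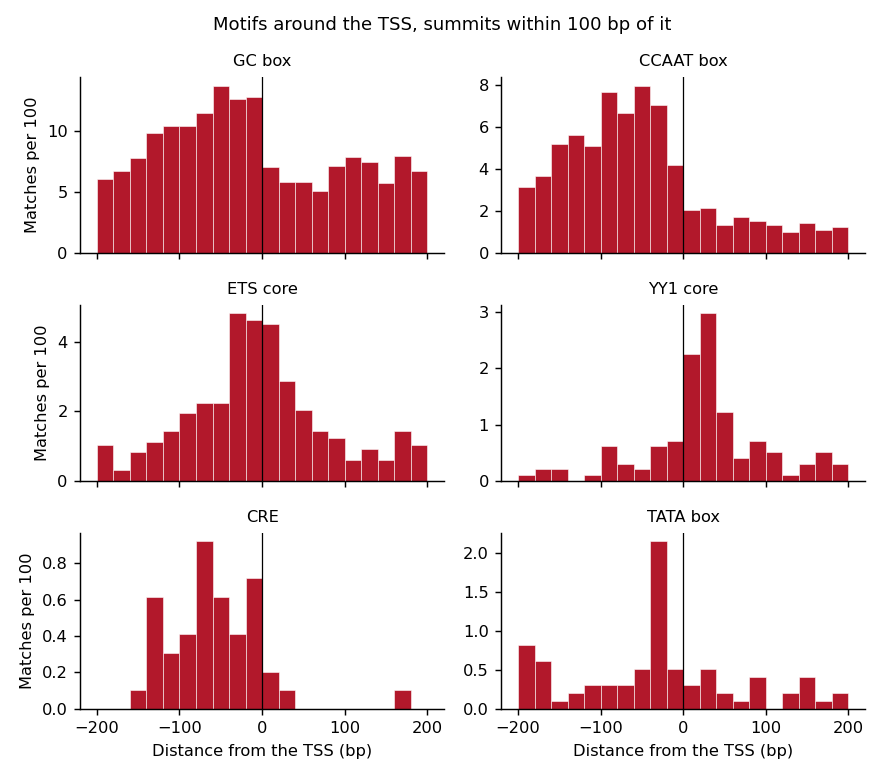
Motif matches per 100 members in bins of 20 bp (y axis, a separate scale for each panel) by distance from the TSS (x axis, bp, negative is upstream), on both strands, for the 976 one-direction peaks with a summit within 100 bp of the TSS. CCAAT boxes and CREs lie upstream, YY1 cores just downstream, and TATA boxes stand out in the bin from 40 to 20 bp upstream.

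GATA tetramers with other flanks remained in many members. After the values of the strongest members had been seen, the tetramer was split by its flanking bases; the A/T-GATA-A/G form was removed by the rule, so only the others can be read. A C/G-GATA-A/G match lay within 100 bp of the summit in 308 members (15.2%) and in the flanks of 11.3% (paired difference 3.95 points, 1.89 to 6.01). The difference was 2.26 points in the 1505 CpG-rich members, with an interval that held 0 (-0.057 to 4.57), and 8.83 points in the 519 others (4.46 to 13.2). In divergent peaks it was in 10.1% at the summit and 10.8% in the flanks (difference -0.75 points, -5.14 to 3.64). The share was 12.1% in the weakest quintile of the members, then 15.8%, 11.4% and 15.8%, and 21.0% in the strongest quintile, where 44 of 94 matches lay within 25 bp of the summit. It was in 15 of the 32 members of the strongest decile of the list and in 6 of the 10 strongest members. The flanks of these peaks held it in 7 of 32 and 2 of 10, and for the 10 strongest the interval of the difference held 0 (-5.55 to 72.2). The A/T-GATA-C/T form was at 10.8% and 14.2% in the flanks over all members (-3.46 points, -5.49 to -1.42). In members that were not CpG-rich it was instead more frequent at the summit, 24.9% and 18.9% (5.95 points, 0.76 to 11.1). It was in 9 of the 32 members of the strongest decile and in 4 of the 10 strongest, against 4 and 2 in their flanks, with intervals that held 0. The C/G-GATA-C/T form was at 9.88% and 10.8% (-0.89 points, -2.75 to 0.97). For any tetramer, the flanks and all coding promoters could still hold the A/T-GATA-A/G form, which the rule removed at the summit. A lower share at the summit is therefore in part built in. Any tetramer at all was in 624 members (30.8%), against 45.0% in their flanks and 36.5% of all coding promoters. It was in 24 of the 32 members of the strongest decile and in 8 of the 10 strongest. Their flanks held it in 16 and 5, with intervals of the difference that held 0. Psmd5 and Clcn3 had none. The split was made after the strongest members were seen, so their counts are a description only.

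The members belonged to 1708 of 21728 protein-coding genes (7.86%). Of these genes 1410 had 1 member peak, 252 had 2, 41 had 3 and 5 had 4. Many such peaks were neighbours on one promoter: 434 members had another member summit within 500 bp, and joining those left 1798 separate regions. Uba7, an enzyme of ubiquitin-like modifier activation, had 4 member peaks with signals of 9.05 to 215, and Arrdc3, an arrestin-domain gene, had 4 with 33.8 to 120.6. Of the 1708 genes, 302 (17.7%) also had a GATA promoter peak, at another summit within 1 kb of one of their TSSs. Over all coding genes, 6.42% had a GATA promoter peak.

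Genes of the basic cell machinery were well represented among them. Cytosolic ribosomal protein genes had a member in 30 of 80 (37.5%, against 7.86% of all coding genes), led by Rps19 (signal 167), Rpl32 (143) and Rpl26 (142). Aminoacyl-tRNA synthetase genes had one in 8 of 20, led by Dars (86.8), and genes named as translation initiation factors, some of them kinases or binding partners of these factors, in 14 of 54, led by Eif5 (178) and Eif4a3 (153). Proteasome genes had one in 12 of 39, chaperonin and HSP70/HSP90 genes in 9 of 24, led by Hspa9 (153), and spliceosome and hnRNP genes in 16 of 66. Shares were lower for mitochondrial ribosomal protein genes (13 of 78), Mediator genes (5 of 28) and respiratory chain and ATP synthase genes (10 of 72). Zinc finger genes of the Zfp series had one in 22 of 365 (6.03%), close to the share of all genes. Histone acetyltransferase and coactivator genes had one in 6 of 17 (35.3%), and the red cell lists below stood at similar shares. A promoter peak of any class was at 15.5% of all coding genes, 56.25% of cytosolic ribosomal protein genes and 81.1% of globin, membrane and heme genes. Of the 19 lists, 14 reached at least 2 times the share of all coding genes. The lists were chosen with earlier results of these data known, and no list was tested.

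Histone genes, a list of core, variant and linker H1 genes, held the largest share of the 19 lists, 34 of 78 (43.6%), with a median signal of 74.1 for the strongest member of each gene. Hist1h4f (204, with 104 in library 1 and 98.7 in library 2), Hist1h4d (193, with 110 and 83.5) and Hist1h4c (177, with 96.6 and 78.0) led them, and all 3 encode histone H4. Of these 34 strongest members, 19 held a CCAAT box and 14 a TATA box. Histone genes are near-identical copies in clusters, so the placing of reads among them is uncertain. DNA replication and cell cycle genes had a member in 19 of 50 (38.0%), with a lower median signal of 24.7, and 11 of the 19 held a CCAAT box; Pcna, the sliding clamp of replication (43.7), Plk1, a mitotic kinase (42.0), and Mcm3, a helicase subunit (38.8), were the strongest. Pcna had no library 1 summit within 100 bp, and Plk1 no library 2 summit.

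Red cell genes and hepatocyte genes differed from each other. Genes for globins, the red cell membrane and heme had a member in 12 of 37 (32.4%, against 7.86% of all coding genes). They had a GATA promoter peak in 26, against 6.42% of all coding genes. Ank1 (265), the erythropoietin receptor gene Epor (234) and the adult beta-globin gene Hbb-bs (221) led the members, all 3 with a GATA tetramer of another form near the summit; the hexamer nearest to the Hbb-bs summit reached to 119 bp. Slc4a1, the band 3 anion exchanger, had a member with a signal of 5.55 beside a GATA promoter peak. Erythroid transcription factor genes had a member in 7 of 20 (35.0%), led by Foxo3 (38.2) and Tal1 (30.6), and a GATA promoter peak in 11. Among promoter peaks, Gata1 and Klf1 had only the GATA class. Gata1 also had a peak with the hexamer within 20 kb and over 1 kb from any coding TSS, and Klf1 did not. Hepatocyte transcription factor genes had a member in 0 of 21, which allows a share of up to 15.5% by the Wilson interval, and hepatocyte secreted protein and enzyme genes in 2 of 41, Hpd (19.7) and Apoa2 (18.4). Alb and Afp, the albumin and alpha-fetoprotein genes, had no promoter peak of any class. Each did have a peak with the hexamer within 20 kb of a TSS and over 1 kb from any coding TSS. Neuronal genes had a member in 0 of 26. The fixed genes in common use elsewhere showed moderate signals, with 38.9 for Actb, 34.0 for Gapdh, 73.6 for Polr2a and 89.4 for Myc; the gene of EP300 itself had a weak member at 13.4, with 8.25 in library 1 and no library 2 summit within 100 bp.

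**Figure D5:**
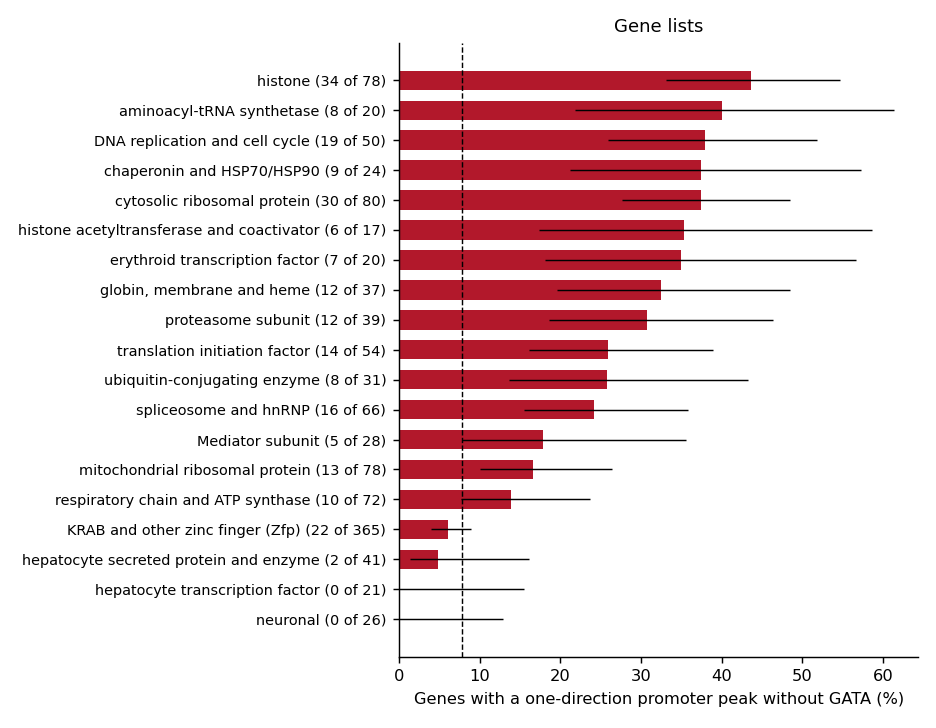
Share of the genes of each list (x axis, %) with a one-direction promoter peak without GATA, with 95% Wilson intervals over genes; counts stand beside the names, and the dashed line is the 7.86% of all coding genes. Histone, tRNA synthetase, cell cycle, chaperone and ribosomal protein genes stand highest, and hepatocyte transcription factor and neuronal genes stand at 0.

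Genes with a member often had a distal GATA peak too. Of the 1681 genes with a member and no divergent peak, 868 (51.6%) had an optimal peak with the hexamer within 20 kb of a TSS and over 1 kb from any coding TSS. The share was 35.5% of the 639 genes with a divergent peak and no member (difference 16.1 points, 11.6 to 20.4) and 20.5% of the 18363 coding genes with no promoter peak (difference 31.2 points, 28.7 to 33.6). It was 60.5% of the 1396 genes with a GATA promoter peak. With only the 1386 genes whose promoter peaks were all members, it was 48.4%. Genes close together can share such a peak, and gene density and expression level were not tested.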

How the data were processed

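The data used were narrow peak lists on mm10 for EP300 ChIP-seq of embryonic mouse liver, with 300000 peaks for each of the 2 libraries and for the pooled list. Per the file listings deposited with them, a control file entered each list. No label or header names the aligner, the caller or the IDR threshold, and these were not given in the sources used here. The signal deposited by the authors is one value per peak, and each list has its own scale. The summit offset deposited in the last column was added to the start. The 12 optimal peaks on unplaced contigs were left out. Coordinates are counted from 1.

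Python 3.11.15 with numpy 2.4.6, pandas 2.3.3 and scipy 1.17.1 was used, on the GRCm38 sequence and GENCODE vM21, which names 21728 protein-coding gene symbols on these chromosomes. Classes were compared as differences of shares with 95% Newcombe intervals, and summits with flanks by paired intervals with 0.5 added per discordant count; no p-value was computed. The search rules and intervals were checked on planted data. The members, motifs, gene lists and comparisons were chosen with earlier results of these data known, and the split of GATA tetramers after the values of the strongest members were seen.

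Genes were named by rule: the 10 strongest members, up to 3 genes of each list, genes with 3 or more members, peaks at the limits, the strongest member with each printed motif, and a fixed set. The peaks at the strand limit were added after their values were seen. The alternatives were other peak lists, each library alone, other windows for the promoter, the GATA rule, the motifs and the matching of summits, other TSSs, and no near-duplicate summits.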

Additional observations from a re-analysis of the deposited data

How the results depend on the processing

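Of the 14 alternatives, those that changed the peaks kept between 1400 and 2261 members, except peaks above the median signal, which kept 569. The members' median percentile was 28.7 in the conservative list and 30.2 among peaks above the median, and 33.7 to 34.0 with either library alone, which leaves out the other. CpG-rich shares differed in the same direction, with intervals that left out 0, under each alternative run, as did support by both libraries against GATA promoter peaks (-24.3 to -5.00 points); with each library alone this support could not be computed. Support against divergent peaks changed sign, with intervals that held 0, among peaks above the median (1.77), the top of the pooled list (0.34), protein-coding transcripts (0.21) and summits matched within 25 bp (2.30) or 250 bp (2.70). The downstream share was -0.73 points with a 500 bp window. For TATA boxes the difference from GATA promoter peaks was 1.82 above the median and 0.73 within 50 bp, and that from the flanks 0.35 above the median. Motifs less frequent than in GATA promoter peaks numbered 0 above the median, 1 without near-duplicates or within 50 bp, and 2 to 4 with either library alone and 2 with a 500 bp window, protein-coding transcripts, a GATA window of 250 bp or any tetramer. Motifs more frequent than in divergent peaks numbered 0 or 1, and less frequent ones 0 to 3, with 3 in library 1 alone, 2 with the wider GATA window and 0 in the pooled list, with a 500 bp window, without near-duplicates and within 50 bp. The flank count for TATA was 0 above the median and without near-duplicates. The causes were not tested. No paired analysis was possible because there is 1 group. Depth is unknown, so how it limits the weakest peaks was not tested.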

Other observations

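A start of a noncoding gene on the other strand lay within 1 kb of the summit in 280 members (13.8%), against 7.14% of the 1400 one-direction promoter peaks with GATA. Those 280 members had a median signal of 27.6, and 82.9% were CpG-rich; the other 1744 had a median signal of 26.3, and 73.0% were CpG-rich. The nearest coding TSS on the other strand was over 20 kb away for 1372 members (67.8%) and within 2 kb for 51.

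No other optimal peak lay within 12.5 kb of 729 members (36.0%), against 39.8% of divergent peaks and 32.8% of GATA promoter peaks. These lone members had a median signal of 29.7 and were matched in both libraries in 72.2%, while the 1295 with a neighbour had a median of 24.4, and 738 of them were matched in both.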
